A study of Mus musculus with 4 samples.

Results

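The genes of mouse chromosome 12 were compared between 2 clonal progenitor lines of the interstitial cells of Cajal, which set the rhythm of gut muscle contraction. The members were all gene rows of the count tables placed on chromosome 12 with at least 20 counts summed over the 4 libraries, in order of their start. The imprinted genes Rian, Meg3, Mirg, Dlk1, Rtl1 and Dio3 were left out. This gave 534 of the 797 rows of the chromosome, and of 15244 rows with at least 20 counts among 23358 in all. A further 257 rows were below the minimum, 124 of them at 0 counts. Just inside the limit, at 20 counts, stood Gm17746, Myt1l, Hdac9, Gm5039, Serpina11 and Mir337; just outside, at 18, stood Lrrn3, Coch, Aldoart2, Wdr20b and Serpina3f. The count minimum and the place of a row chose the members, and the chromosome itself was chosen because its shift between the lines was already known. That shift is therefore given as a description with no test of its own.

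The line 2xSCS2F10 was derived from the stomach muscle coat (tunica muscularis) of C57BL/6J mice and was grown in NeuroCult medium with 5% chick embryo extract at 37 °C. The second line, 2xSCS70, was derived from that tissue in H-2Kb-tsA58 mice and grown in NeuroCult medium at 39.5 °C with no interferon gamma. The transgene of these mice, a heat-sensitive form of the large T antigen of SV40, is driven by the H-2Kb promoter, which interferon induces, and its product is made to lose its function at the higher temperature. Each line is 1 clone with 2 libraries, so strain, transgene, temperature and medium changed together with the line and cannot be told apart. Whether the libraries of a line were separate cultures is not in the labels, so p-values measured the spread between these libraries only, and that spread may be technical.

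The libraries held between 20159986 and 24485632 sequenced fragments in genes. The 2xSCS2F10 libraries differed more from each other than the 2xSCS70 libraries did, with a chi-square of 106 and 44.7 per degree of freedom. Among tested chromosome 12 genes, the median absolute difference between replicates was 0.26 on the log2 scale in 2xSCS2F10 and 0.10 in 2xSCS70. Kit, the receptor that defines interstitial cells of Cajal, had 0 counts in 3 libraries and 0.0411 CPM (counts adjusted for library size) in 2xSCS70 replicate 2. Ano1, the chloride channel of these cells, had 29.8 and 18.4 CPM in 2xSCS2F10 against 2.29 and 2.55 in 2xSCS70 (log2 fold change −3.32, edgeR adjusted p = 0.00219). Smooth muscle and mesothelial markers moved with the line too. The 5 smooth muscle markers (Myh11, Acta2, Des, Tagln, Cnn1) summed to 4915 and 8750 CPM in 2xSCS2F10 and to 716 and 671 CPM in 2xSCS70, with 4 of 5 lower. The 3 mesothelial markers (Msln, Upk3b, Wt1) summed to 1700 and 1739 CPM against 26.5 and 22.3 CPM, with 3 of 3 lower, and 0 of the 8 markers were at 0 in all libraries. Endothelial markers (Pecam1, Cdh5) summed to 0.0514 and 0.0525 against 0.544 and 0.781 CPM, and blood markers (Ptprc, Cd68) to 1.70 and 1.73 against 2.90 and 3.90 CPM. The glial marker S100b had 0.0514 and 0.105 CPM against 0.580 and 0.452 (2.69, edgeR adjusted p = 0.0201). S100b passed the filter on low counts only through 2xSCS70, so the direction of its call was set by the filter. The part of any of these cell types in the differences below was not tested.

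As background, most genes of a chromosome have no function in common, and they are expressed each under its own regulatory elements. A change of small size that most genes of a chromosome share can therefore be read from the median over the chromosome, whereas single genes can change far more. Chromosome 12 of the mouse carries, near its far end, the imprinted Dlk1-Dio3 domain, in which long transcripts of the maternal copy (Meg3, Rian, Mirg) host many microRNAs and small nucleolar RNAs. It also carries the neighbouring interferon-induced genes Rsad2 and Cmpk2, and the genes for Hsp90aa1, Hif1a, Dicer1 and Dnmt3a.

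The 5 microRNA rows of the imprinted domain that had enough counts to be tested were at 0 counts in both 2xSCS70 libraries, and their mature sequences are shown to identify what the rows stand for. They are the RefSeq entries of GRCm38.p6, 5′ to 3′, with the seed (bases 2 to 8) in capitals. The 10 sequences carried 10 different seeds, which is to say that no pair of them shares one.
mmu-miR-493-5p: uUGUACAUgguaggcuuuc
mmu-miR-493-3p: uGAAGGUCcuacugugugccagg
mmu-miR-3070-5p: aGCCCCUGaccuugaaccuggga
mmu-miR-3070-3p: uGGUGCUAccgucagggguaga
mmu-miR-341-5p: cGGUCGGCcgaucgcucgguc
mmu-miR-341-3p: uCGGUCGAucggucggucggu
mmu-miR-1188-5p: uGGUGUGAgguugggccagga
mmu-miR-1188-3p: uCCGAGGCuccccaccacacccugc
mmu-miR-3072-5p: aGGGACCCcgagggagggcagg
mmu-miR-3072-3p: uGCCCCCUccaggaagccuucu
A library of polyadenylated RNA is not made to capture such short RNAs, and which transcripts gave the reads in these rows was not tested.

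The promoters of Rsad2 and Cmpk2 are shown because these neighbouring genes were at or near 0 in 2xSCS2F10 and were both higher in 2xSCS70. Each is the 250 bases before the RefSeq start on GRCm38.p6, read on the gene's own strand, at chr12:26456453-26456702 (minus strand) for Rsad2 and chr12:26468965-26469214 (plus strand) for Cmpk2. Capitals mark a match to 2 copies of TTTC with any 2 bases between them, the core of the interferon-stimulated response element, which was searched on both strands as the only motif.
Rsad2: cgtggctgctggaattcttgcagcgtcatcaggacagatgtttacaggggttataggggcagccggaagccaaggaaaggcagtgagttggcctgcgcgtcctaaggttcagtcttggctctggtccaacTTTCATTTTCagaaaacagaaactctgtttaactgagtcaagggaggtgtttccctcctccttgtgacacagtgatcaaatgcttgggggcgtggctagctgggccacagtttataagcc
Cmpk2: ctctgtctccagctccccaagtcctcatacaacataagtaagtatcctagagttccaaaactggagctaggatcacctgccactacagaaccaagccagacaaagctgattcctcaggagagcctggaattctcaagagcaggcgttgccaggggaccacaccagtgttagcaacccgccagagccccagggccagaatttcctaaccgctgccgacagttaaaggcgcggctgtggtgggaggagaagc
The Rsad2 window held 1 match, 120 to 111 bases before the start, and the Cmpk2 window held 0, as did the window of their neighbour Rnf144a. Of 32851 RefSeq promoter windows of the same length, 978 (2.98%) held a match. A match is a description of the letters only.

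Genes of chromosome 12 were, by their median, higher in 2xSCS70 by 0.37 on the fitted log2 scale, or 1.29-fold. The interval from the lower to the upper quartile ran from −0.18 to 0.91 over the 502 members that passed the filter on low counts; the other 32 members were not tested. The median over 13525 genes of the other 18 autosomes was −0.01, so chromosome 12 stood 0.38 above it (1.30-fold). Chromosome 12 had the highest median of the 19 autosomes. Chromosomes 1 and 7 followed with 0.31 and 0.27, and chromosomes 6 and 18 were at the other end with −0.35 and −0.46. The X chromosome, set beside the autosomes only as a value, had a median of 0.70. In bulk RNA, fewer cells of a type and less RNA per cell cannot be told apart.

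The shift was seen between any library of one line and any library of the other. In the 4 pairs of libraries that cross the lines, the chromosome 12 median ran from 0.33 to 0.37 on the scale of log2(CPM + 0.5), and that of chromosome 1 from 0.25 to 0.30. Between replicates of a line it was 0.01 in 2xSCS2F10 and 0.01 in 2xSCS70, while over all autosomes such replicate medians ran from −0.09 to 0.07. The 4 cross pairs of chromosome 12 did not overlap those of chromosome 1, and lay outside the replicate differences of every autosome. The 4 pairs share libraries and are no independent repeats. The members took 1.99% and 1.89% of all counts in 2xSCS2F10 and 2.77% and 2.66% in 2xSCS70. Without the 10 members with most counts these shares were 1.56% and 1.44% against 2.08% and 2.02%, so the groups did not overlap either way.

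**Figure D1:**
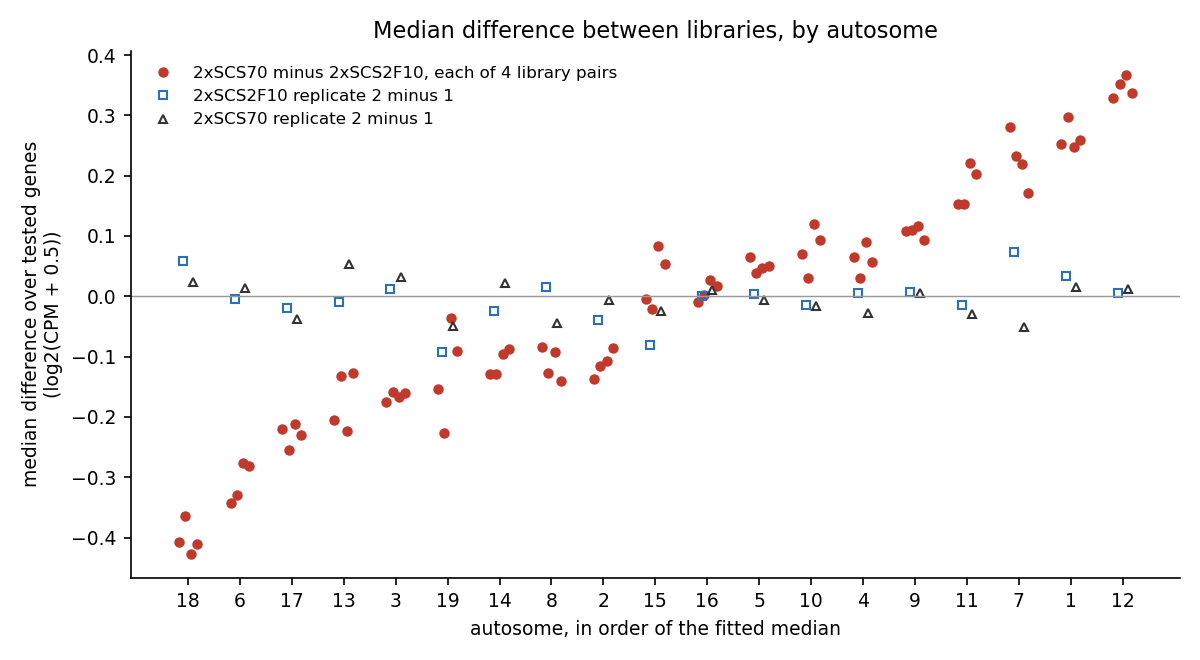
Median difference in log2(CPM + 0.5) over the tested genes of each autosome (vertical axis), with autosomes ordered by their fitted median: filled points are the 4 library pairs that cross the lines, open squares and triangles the replicates within a line. Chromosome 12 lies at the right end with pairs from 0.33 to 0.37, while its replicate differences lie at 0.01.

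Of the 502 tested members, 359 had a fold change above 0 and 143 below 0. By edgeR's quasi-likelihood test with Benjamini-Hochberg adjustment over all 14496 tested genes, which is the source of every adjusted p below, 160 members (31.9%) were higher in 2xSCS70 and 74 (14.7%) were lower at an adjusted p under 0.05. Over all tested genes 18.8% were higher and 21.8% lower. The CPM values of the lines did not overlap for 424 members (84.5%), 307 of them higher and 117 lower, against 77.4% of all tested genes (39.9% higher and 37.5% lower). The number called changed with the libraries used: without 2xSCS70 replicate 1 it was 16 higher and 15 lower, and without its replicate 2 it was 15 and 15. With 2xSCS2F10 replicate 1 left out it was 249 and 115, and with its replicate 2 left out it was 249 and 90.

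A second fit took the median shift of each chromosome out before testing. It called 177 members (35.3%), 74 higher and 103 lower, beside 36.6% of all tested genes (15.8% higher and 20.8% lower). Of the 160 members called higher without centring, 74 kept their call and 86 lost it. All 74 members called lower kept theirs, and 29 more passed. The members past the threshold were thus about as frequent as elsewhere once the common shift was removed. Leaving out 2xSCS70 replicate 1 and 2, the centred count was 24 and 27, and leaving out 2xSCS2F10 replicate 1 and 2 it was 317 and 280.

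The shift lay across most of the distribution of fold changes. Between the 20th and the 80th percentile, chromosome 12 lay above the other autosomes by 0.33 to 0.47 at each step of 5 percentiles. The 20th percentile was −0.37 against −0.75 and the 80th was 1.10 against 0.74. At the low end the order turned, with a 5th percentile of −4.79 on chromosome 12 and −3.11 elsewhere; without rows shorter than 150 bases it was −2.69. Of the tested members 47.6% lay within 0.5 of the chromosome 12 median, against 47.8% of genes around their own chromosome's median on the other autosomes. The width from quartile to quartile was 1.10, the 7th widest of the 19 autosomes.

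**Figure D2:**
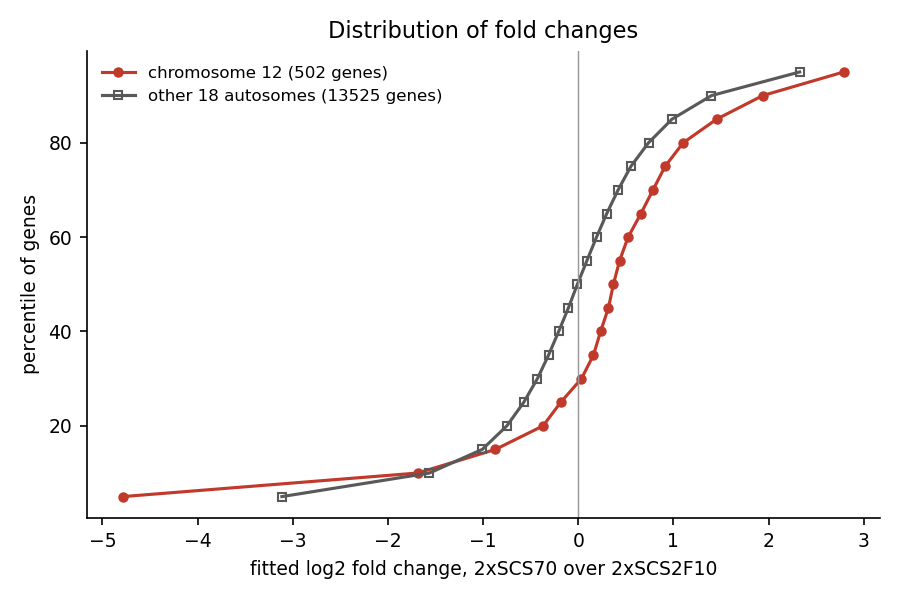
Fitted log2 fold change, 2xSCS70 over 2xSCS2F10 (horizontal axis), at every 5th percentile of genes (vertical axis), for 502 chromosome 12 genes and 13525 genes of the other autosomes. The chromosome 12 curve lies to the right from the 15th percentile up and crosses to the left at the low end, where it reaches −4.79 at the 5th percentile.

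Along the chromosome the median was above 0 in each of 13 runs of 40 consecutive tested genes (22 in the last). The medians of the runs were, from the first to the last, 0.43, 0.36, 0.32, 0.17, 0.42, 0.28, 0.37, 0.22, 0.67, 0.53, 0.31, 0.45 and 0.71. Every run was above 0 in each of the 4 library pairs as well, from 0.02 to 0.67. On the other autosomes 161 of 340 such runs were above 0, with 21 of 22 on chromosome 1, 23 of 27 on chromosome 7 and 0 of 10 on chromosome 18, and on the X chromosome 11 of 11 were. The medians of chromosome 12 spanned 0.54, and 14 of the 19 autosomes spanned more, with a range of 0.31 to 1.43 over the other 18.

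The lowest run, with a median of 0.17, lay from Gm2027 to Sec23a at chr12:44221356-59012017. It held 7 genes called higher and 4 called lower. Its pair medians were 0.02 and 0.04 against 2xSCS2F10 replicate 1 and 0.14 and 0.11 against replicate 2. The replicates of 2xSCS2F10 differed there by −0.10 (replicate 2 minus 1). The shift of this run was thus smaller than that spread against replicate 1, and only slightly larger against replicate 2. The highest were the run from Jdp2 to Ttc8 at chr12:85599105-98983238, with 20 higher and 3 lower, and the last run from Gpr132 to Macc1, with 7 higher and 3 lower. The run before the first of these, from Dcaf4 to Fos at chr12:83520466-85477270, had a low median of 0.22 with 13 higher and 10 lower, and its lower quartile was at −1.18. In the run from Clmn to B930059L03Rik the lower quartile was at −7.07, since 11 of its 40 rows are short rows of the imprinted domain; without these its median was 0.59 and its lower quartile 0.27.

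With runs of 20 genes, 23 of 25 medians were above 0, and they spanned 7.98, with 0.88 as the highest, since 1 run then held mostly short rows. With runs of 80 genes the span was 0.40. Among members with a mean of at least 5 CPM it was 0.29, with each of 9 runs above 0, and without rows under 150 bases it was 0.50. The first tested row, 1700012B15Rik, an antisense transcript of Rab10, had 4.73 and 3.52 CPM in 2xSCS2F10 and 5.84 and 4.77 in 2xSCS70 (log2 fold change 0.36 ± 0.26 SE, adjusted p = 0.312). The last, Macc1, had 4.11 and 9.55 CPM against 15.7 and 17.2 (1.27 ± 0.41 SE, adjusted p = 0.0618). Both ends were thus above 0, with neither past the threshold.

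**Figure D3:**
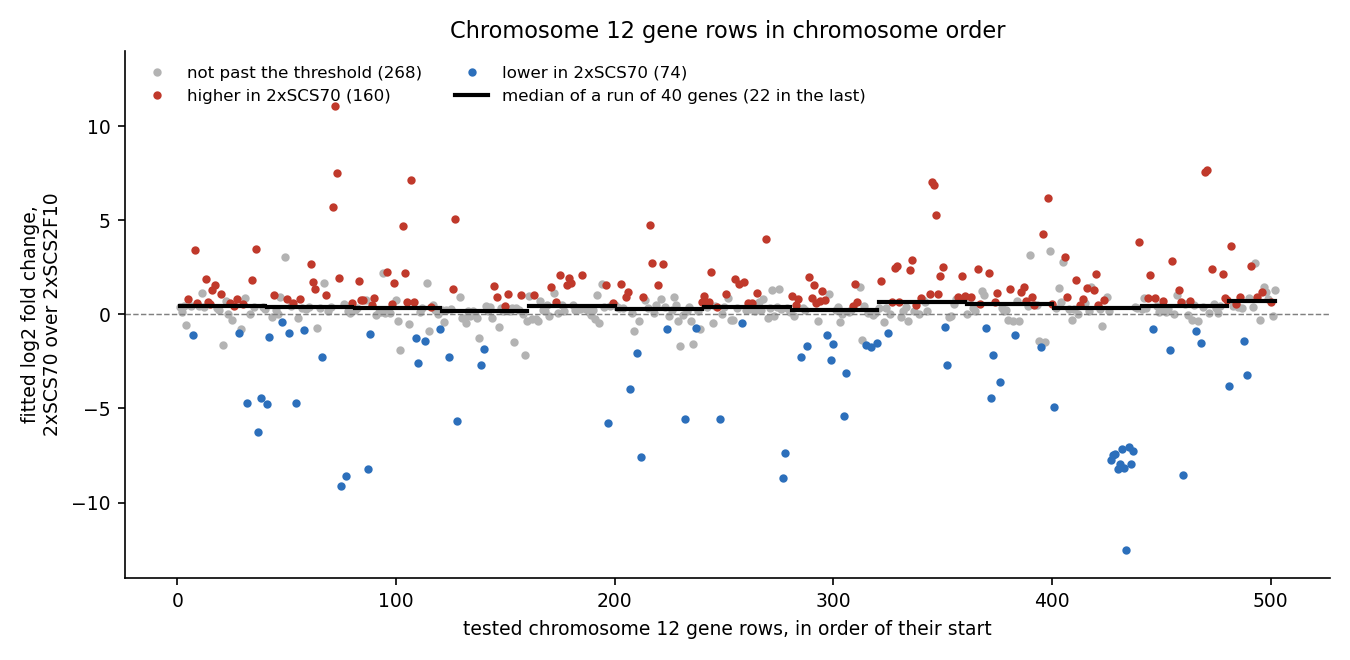
Fitted log2 fold change (vertical axis) of the 502 tested rows in the order of their start (horizontal axis); red points are higher, blue points lower and grey points not past the threshold, and black bars are the medians of runs of 40 rows. Each of the 13 bars lies above 0, between 0.17 and 0.71, and the blue group near position 430 is the short rows of the imprinted domain.

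The shift was present in each class of level, coding length, GC content, CpG number and strand, and smallest among genes of low level. Role lists, described further on, had medians that varied more. Genes were split into 3 classes of equal number over all autosomes. By level (cuts at 7.76 and 45.9 CPM), chromosome 12 stood above the other autosomes by 0.17 in the low, 0.42 in the middle and 0.44 in the high class. The spread narrowed with level, from an interquartile width of 2.63 in the low class to 0.85 and 0.58. By coding length the difference was 0.42, 0.39 and 0.34 from short to long genes. By GC content of the transcript, known for 486 tested members, it was 0.42, 0.41 and 0.28 from low to high. By CpG number of the promoter, known for 415, it was 0.29, 0.33 and 0.41 from few to many. Genes on the plus strand differed by 0.43 and those on the minus strand by 0.34.

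The highest level per coding length on the chromosome belonged to 6 rows, and 4 of these were near or below the common shift. Hsp90aa1, the inducible cytosolic chaperone, also had the most counts of all members, with 239 and 155 RPKM (reads scaled to coding length and library size) in 2xSCS2F10 and 299 and 279 in 2xSCS70. Its libraries did not overlap, and its log2 fold change of 0.34 ± 0.17 SE (adjusted p = 0.178) was close to the chromosome median. The ribosomal protein genes Rps29, with 243 and 175 against 265 and 253 RPKM, and Rps7, with 236 and 168 against 277 and 253, had fold changes of 0.09 ± 0.13 SE (adjusted p = 0.610) and 0.17 ± 0.13 SE (adjusted p = 0.348). Processed copies of these genes elsewhere could take some of their reads. Actn1, an actin cross-linker, had 133 and 135 RPKM against 210 and 159 (0.21 ± 0.17 SE, adjusted p = 0.365). The other 2 rows were lower in 2xSCS70. Crip1, a small LIM-domain protein, had 365 and 591 RPKM in 2xSCS2F10 and 58.2 and 63.5 in 2xSCS70, a fall of 3.24 ± 0.36 SE on the log2 scale (adjusted p = 0.00364; 0.0681 and 0.0608 without 2xSCS70 replicate 1 and 2). The row AF357359 is described with the short rows.

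Genes departed from the common shift in both directions, about as often as genes elsewhere departed from the median of their own chromosome. Within 0.5 of that median lay 47.6% of tested members and 47.8% of genes on the other autosomes. With each chromosome centred, 35.3% of members and 36.6% of all tested genes were called. Shares elsewhere at the fold limits below are not given here. Of the tested members, 81 lay more than 1 above the chromosome median on the log2 scale and 88 more than 1 below it. Past the threshold, 89 members were at least 2-fold higher and 62 at least 2-fold lower, and at 16-fold the counts were 15 and 30, the latter with 11 short rows described further on. Among called genes whose lines did not overlap and whose mean reached 10 CPM, the 8 farthest below the median were at high levels in 2xSCS2F10 and near 0 in 2xSCS70. Ckb, the brain-type creatine kinase, which regenerates ATP, had 28.7 and 74.2 CPM in 2xSCS2F10 against 0.145 and 0.123 in 2xSCS70 (log2 fold change −8.55 ± 0.69 SE, adjusted p = 0.00165). Fam110c, which encodes a centrosome-associated protein, had 17.7 and 63.1 CPM against 0.145 and 0.123 (−8.20 ± 0.89 SE, adjusted p = 0.00345). Rtn1, a reticulon of the endoplasmic reticulum, had 43.2 and 31.9 CPM against 0.290 and 0.0822 (−7.60 ± 0.49 SE, adjusted p = 0.000969). For these 3 genes the higher 2xSCS70 library was below the lower 2xSCS2F10 library by more than a factor of 100. All 3 reached the filter on low counts in both libraries only in 2xSCS2F10, so the direction of their calls was set by the filter.

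Kinases and their anchors were among the next. Map3k9, a kinase upstream of JNK, had 47.3 and 75.9 CPM in 2xSCS2F10 and 0.290 and 0.452 in 2xSCS70 (−7.38 ± 0.39 SE, adjusted p = 0.000657). Prkd1, protein kinase D1, had 33.4 and 46.3 CPM against 0.834 and 0.740 (−5.65 ± 0.26 SE, adjusted p = 0.000492). Akap5, an anchor of protein kinase A, had 76.4 and 150.6 CPM against 2.00 and 2.88 (−5.54 ± 0.45 SE, adjusted p = 0.00163). All 3 fell in both libraries of 2xSCS70 with no overlap. Ltbp2, a matrix protein of elastic fibres, had 28.4 and 68.6 CPM against 1.20 and 1.07 (−5.41 ± 0.52 SE, adjusted p = 0.00256). Clmn, a membrane protein with an actin-binding domain, had 43.3 and 43.4 CPM against 1.41 and 1.48 (−4.90 ± 0.15 SE, adjusted p = 0.000347). When 2xSCS70 replicate 1 or 2 was left out, the calls of Fam110c (adjusted p = 0.0622 and 0.0614) and Ltbp2 (0.0541 and 0.0536) were lost, while the other 6 genes kept theirs.

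The 8 genes farthest above the median rose by less. Tnfaip2, a gene induced by tumour necrosis factor, had 4.32 and 5.88 CPM in 2xSCS2F10 and 40.7 and 33.1 in 2xSCS70 (2.86 ± 0.23 SE, adjusted p = 0.00157). Six4, a homeobox transcription factor, had 7.50 and 8.03 CPM against 47.6 and 55.2 (2.73 ± 0.15 SE, adjusted p = 0.000700). The row 4930534B04Rik, now named Cep128 for its centriolar protein, had 6.68 and 1.89 CPM against 22.7 and 25.5 (2.49 ± 0.58 SE, adjusted p = 0.0262). The groups of these 3 genes were apart, with the 2xSCS2F10 libraries of Cep128 far from each other. Vash1, an enzyme that removes tyrosine from tubulin and an inhibitor of angiogenesis, had 3.49 and 3.15 CPM against 18.8 and 17.8 (2.46 ± 0.18 SE, adjusted p = 0.00126). Tmed8, a relative of cargo receptors of the secretory pathway, had 8.68 and 9.50 CPM against 46.8 and 47.7 (2.38 ± 0.13 SE, adjusted p = 0.000721). For both, replicates lay close together. Prkar2b, a regulatory subunit of protein kinase A, had 8.48 and 2.10 CPM against 23.3 and 27.8 (2.27 ± 0.64 SE, adjusted p = 0.0424). Gphn, gephyrin, which clusters inhibitory receptors and makes the molybdenum cofactor, had 5.80 and 3.52 CPM against 23.1 and 21.9 (2.27 ± 0.28 SE, adjusted p = 0.00460). Atxn7l1, a paralog of the SAGA subunit ataxin 7, had 7.09 and 9.29 CPM against 37.0 and 37.0 (2.18 ± 0.18 SE, adjusted p = 0.00180). After leaving out 2xSCS70 replicate 1 or 2, Cep128 (adjusted p = 0.141 and 0.154), Prkar2b (0.174 and 0.204) and Gphn (0.0708 and 0.0664) lost their calls and the other 5 kept them. With each chromosome centred, Prkar2b was no longer called (adjusted p = 0.0698), while the other 15 of the 16 genes were.

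**Figure D4:**
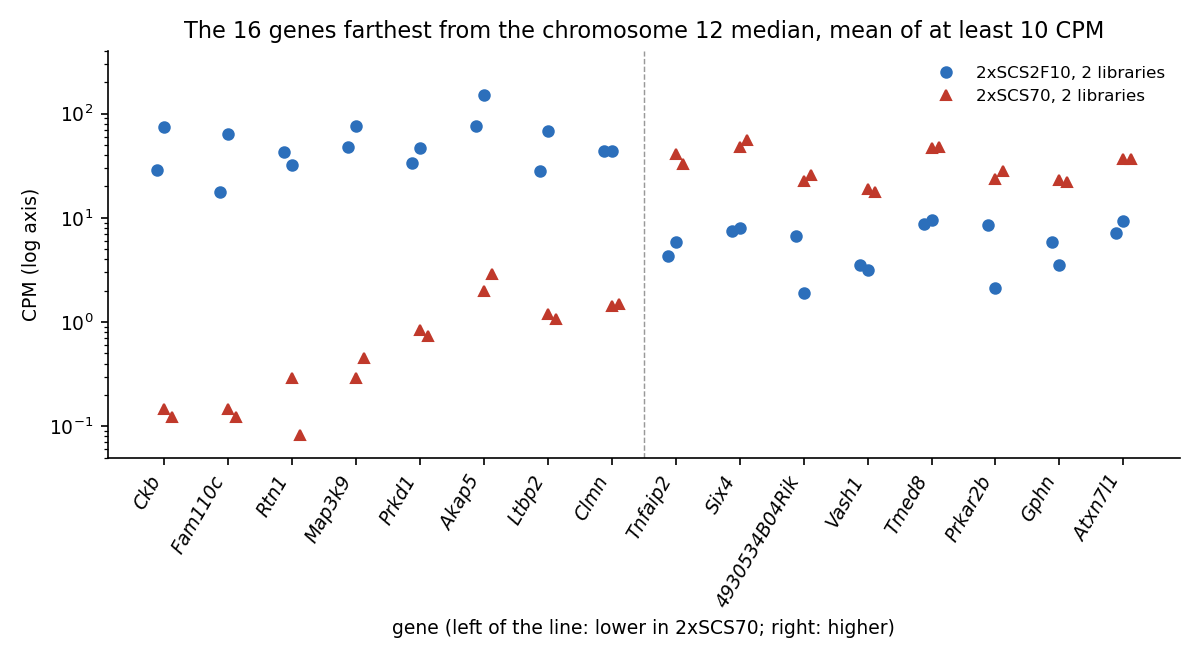
CPM on a log axis (vertical) in each library for the 16 genes farthest from the chromosome 12 median; circles are the 2 libraries of 2xSCS2F10 and triangles the 2 of 2xSCS70. Left of the dashed line the triangles lie at or below 2.88 CPM, and right of it they lie at or above 17.8 CPM with circles at or below 9.50 CPM.

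Neighbours did not always move together. Ckb, at chr12:111669355-111672338, and Tnfaip2, at chr12:111442661-111455018, lie 214 kb apart and are among the farthest below and above the median. The LIM-domain genes Crip2 and Crip1, within 13.6 kb, were both lower: Crip2 had 107 and 90.2 CPM in 2xSCS2F10 and 39.8 and 35.2 in 2xSCS70 (−1.39 ± 0.15 SE, adjusted p = 0.00333). Among the acyl-CoA thioesterase genes, Acot2, which acts in mitochondria, was lower, with 17.6 and 20.6 CPM against 5.51 and 6.33 (−1.69 ± 0.18 SE, adjusted p = 0.00346). Its neighbour Acot1, which acts in the cytosol, was higher, with 2.26 and 1.99 CPM against 8.60 and 8.26 (1.98 ± 0.22 SE, adjusted p = 0.00351). These genes are near copies, so the split of reads between them is uncertain.

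Rsad2, Cmpk2 and Rnf144a lie within 173 kb and were all higher in 2xSCS70. Rsad2, or viperin, an interferon-induced enzyme that makes a chain-ending nucleotide from CTP, had 0 counts in both 2xSCS2F10 libraries and 6.28 and 5.59 CPM in 2xSCS70, at least 38.1-fold higher against a floor of 3 fragments per library (adjusted p = 0.00161). Cmpk2, a mitochondrial kinase of pyrimidine nucleotides that is also induced by interferon, had 1 fragment over both 2xSCS2F10 libraries and 5.41 and 5.14 CPM in 2xSCS70. That is a ratio of 203, with an exact 95% interval of 36.2 to 8062 from counting alone (adjusted p = 0.00193). Rnf144a, a ubiquitin ligase that acts on DNA-dependent protein kinase, had 0.103 and 0 CPM in 2xSCS2F10 and 2.83 and 2.92 in 2xSCS70 (5.72 ± 0.78 SE, adjusted p = 0.00633). The levels of the 3 genes in 2xSCS70 were low, with replicates close to each other. All 3 passed the filter on low counts only through 2xSCS70, so the direction of their calls was set by the filter. Of the 6 tested genes of an interferon list, 3 were higher (these 3) and 1 lower, with a median of 3.12; 2 were higher and 0 lower without either 2xSCS70 library, and the median was 5.12 without 2xSCS2F10 replicate 1. Ifi27l2b, of the Ifi27 family, had 1.39 and 2.99 CPM in 2xSCS2F10 and 0.617 and 0.699 in 2xSCS70 (−1.73 ± 0.47 SE, adjusted p = 0.0399), and Ifi27l1 and Ifi27l2a were not past the threshold.

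Among the departures were the short rows of the imprinted domain, which lay close together. Between chr12:109580233-109747960, or 168 kb, lay 17 member rows of 30 to 120 bases, 11 for microRNAs and 6 for other small RNAs. All 17 were at 0 counts in both 2xSCS70 libraries. In 2xSCS2F10 they held 915 fragments in all, 405 in replicate 1 and 510 in replicate 2, and 622 of these fell on the 30-base row AF357359. The other 16 rows held 10 to 31 fragments each. Of the 17, 11 passed the filter on low counts, which they did only through 2xSCS2F10, so that a low call was set by the filter; each of the 11 was called, with adjusted p from 0.000954 to 0.0139. Against the floor of 3 fragments per library in 2xSCS70, AF357359 was at least 139-fold lower, with 14.2 and 18.1 CPM in 2xSCS2F10. The other 10 were at least 3.13-fold to at least 6.95-fold lower. The 6 rows for other small RNAs, AF357359 among them, lie inside the row of Rian. Reads of this host transcript, which was left out of the members, can therefore be counted in them.

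The microRNA rows stood low even in 2xSCS2F10. The row of Mir493, at chr12:109580233-109580315, had 0.514 and 0.682 CPM, and that of Mir1188, at chr12:109611822-109611941, had 0.616 and 0.997 CPM. Mir3070a had 0.565 and 0.420, Mir341 had 0.462 and 0.472, and Mir3072 had 0.411 and 0.420 CPM. Nothing in these values measures the mature microRNAs whose sequences are printed above. Mir341 and Mir1188 lie inside the row of Rian and Mir3072 inside that of Mirg, so reads of these host transcripts can be counted there. Without 2xSCS70 replicate 1 and 2, adjusted p for the 5 rows ran from 0.0707 to 0.0850 and from 0.0678 to 0.0831, and for AF357359 it was 0.0243 and 0.0231.

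Longer members around this group had a median near that of the chromosome. Within 1 Mb on either side, and between the short rows, 14 longer members were tested, with a median of 0.42; 13 were above 0, 5 were called higher and 0 lower. Over all tested members 31.9% were higher and 14.7% lower. Of the 4 short members elsewhere on the chromosome, Mir5135, Mir3068 and Snora28 were tested, and 0 of 3 passed the threshold. Snora28, which lies inside Eif5, had 1.13 and 0.682 CPM in 2xSCS2F10 and 1.63 and 2.05 in 2xSCS70 (1.02 ± 0.38 SE, adjusted p = 0.0894). The longer genes of the domain itself, among them the hosts of short rows, were left out by the rule that chose the members, so these values describe only the genes beside it.

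Grouped by role, transcription factors were called in both directions, not far from the shares over all tested genes. Of 28 tested, 7 were higher and 6 lower, with a median of 0.28 beside 0.37 over all tested members. Over all tested genes 18.8% were higher and 21.8% lower, and over the tested members 31.9% and 14.7%. The counts of every role list are to be read beside these shares. Sox11, a factor of neural and mesenchymal progenitors, had 12.2 and 12.5 CPM in 2xSCS2F10 and 1 fragment over both 2xSCS70 libraries, a ratio of 641 with an exact 95% interval of 114 to 25382 from counting alone (adjusted p = 0.000851). Mycn, a proto-oncogene of the Myc family, had 19.2 and 24.4 CPM against 1.34 and 0.616 (−4.46 ± 0.42 SE, adjusted p = 0.00233). Osr1, a factor of mesoderm, had 4.83 and 7.45 CPM against 0.327 and 0.123 (−4.73 ± 0.53 SE, adjusted p = 0.00373). These 3 were all lower with no overlap. Sox11 and Osr1 reached the filter on low counts in both libraries only in 2xSCS2F10, so the direction of their calls was set by the filter. Fos, a subunit of AP-1, had 7.76 and 6.72 CPM against 2.29 and 2.71 (−1.53 ± 0.23 SE, adjusted p = 0.00829). Yy1, a zinc finger factor of many promoters, had 68.6 and 71.2 CPM against 96.3 and 97.1 (0.47 ± 0.11 SE, adjusted p = 0.0266), close to the common shift. The list held 2 higher and 3 lower without either 2xSCS70 library, and 14 and 9 without 2xSCS2F10 replicate 2. With 2xSCS70 replicate 1 or 2 left out, Fos (adjusted p = 0.119 and 0.0994) and Yy1 (0.221 and 0.229) were not called.

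The other 4 factors that were of interest whatever their values did not pass the threshold. Etv1, an ETS factor that marks interstitial cells of Cajal, was near 0 in both lines, with 0.0514 and 0.367 CPM in 2xSCS2F10 and 0.544 and 0.781 in 2xSCS70 (1.65 ± 0.81 SE, adjusted p = 0.160). Hif1a, the oxygen-regulated factor, had 227 and 446 CPM against 429 and 455 (0.39 ± 0.33 SE, adjusted p = 0.374). Twist1, a factor of mesenchyme, had 26.6 and 15.6 CPM against 14.5 and 14.9 (−0.52 ± 0.28 SE, adjusted p = 0.190), and Id2, an inhibitor of such factors, had 8.32 and 0.997 CPM against 5.62 and 6.49 (0.38 ± 0.89 SE, adjusted p = 0.754). For Hif1a and Id2 the lines overlapped, since the 2xSCS2F10 libraries differed most. Without 2xSCS2F10 replicate 1 the fold change of Hif1a was −0.03, and without replicate 2 that of Id2 was −0.47 (adjusted p = 0.0276).

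Genes of DNA replication, repair and cell division had the highest median of the larger lists, 0.92. Of 23 tested, 12 were higher and 1 lower. Nin, a centrosomal anchor of microtubules, had 38.1 and 38.4 CPM in 2xSCS2F10 and 114 and 112 in 2xSCS70 (1.56 ± 0.11 SE, adjusted p = 0.00125). Pole2, a subunit of DNA polymerase epsilon, had 11.7 and 4.83 CPM against 25.1 and 27.5 (1.67 ± 0.42 SE, adjusted p = 0.0320). Vrk1, a kinase of chromatin in dividing cells, had 19.1 and 7.77 CPM against 45.9 and 49.4 (1.83 ± 0.43 SE, adjusted p = 0.0264). The 2xSCS2F10 libraries of Pole2 and Vrk1 differed by more than a factor of 2 from each other, and replicate 2 was the lower. Rrm2, a subunit of ribonucleotide reductase, had 106 and 32.3 CPM against 218 and 216, and with the same gap between replicates it did not pass the threshold (1.65 ± 0.55 SE, adjusted p = 0.0670). The 1 lower gene was Mlh3, a mismatch repair factor of meiosis, with 21.6 and 23.9 CPM against 6.78 and 7.81 (−1.64 ± 0.17 SE, adjusted p = 0.00292). Once each chromosome was centred, 4 of the 23 were called. In tests without either 2xSCS70 library the list held 1 higher and 0 lower.

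Chromatin and RNA processing genes had more members called higher than lower, as had the tested members as a whole (31.9% and 14.7%). Of 10 tested chromatin regulators 4 were higher and 1 lower (median 0.35), and of 16 RNA processing genes 9 were higher and 1 lower (median 0.46). Baz1a, a subunit of a nucleosome remodeller, had 49.9 and 42.5 CPM in 2xSCS2F10 and 127 and 135 in 2xSCS70 (1.50 ± 0.14 SE, adjusted p = 0.00222). Rcor1, a partner of the demethylase Kdm1a, had 31.5 and 35.7 CPM against 53.8 and 53.8 (0.68 ± 0.13 SE, adjusted p = 0.0148). The 1 lower chromatin gene was Dnmt3a, a DNA methyltransferase, with 72.1 and 107 CPM against 42.5 and 42.2 (−1.08 ± 0.21 SE, adjusted p = 0.0166). Among RNA processing genes, Angel1, which binds the cap-binding protein, had 1.08 and 1.15 CPM against 7.29 and 5.79 (2.55 ± 0.27 SE, adjusted p = 0.00314). Snw1, a splicing and transcription factor, had 59.5 and 53.3 CPM against 114 and 122 (1.06 ± 0.13 SE, adjusted p = 0.00420). Dicer1, which cuts microRNA precursors, had 70.7 and 77.5 CPM against 107 and 109 (0.55 ± 0.12 SE, adjusted p = 0.0201), 0.18 above the common shift and not called once the chromosome was centred (adjusted p = 0.272). Left with 1 library of 2xSCS70, the chromatin list held 1 and 0 higher and 0 lower, and the RNA processing list 0 either way; without either 2xSCS2F10 library the chromatin list held 7 higher and 1 lower.

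Genes of translation and protein turnover changed least in spread. Of 22 tested, 6 were higher and 0 lower, with values from −0.69 to 0.91 and a median of 0.32. Ubr7, a ubiquitin ligase of histones, had 38.4 and 37.4 CPM in 2xSCS2F10 and 60.8 and 61.6 in 2xSCS70 (0.69 ± 0.12 SE, adjusted p = 0.0104). Ahsa1, the co-chaperone that activates Hsp90, had 92.8 and 87.7 CPM against 126 and 129 (0.50 ± 0.11 SE, adjusted p = 0.0229). Both lay near the common shift, and neither was called once it was removed (adjusted p = 0.0820 and 0.393). This list held 0 either way without either 2xSCS70 library, 12 higher and 4 lower without 2xSCS2F10 replicate 1, and 10 and 0 without its replicate 2.

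Mitochondrial and metabolic genes were called in both directions, not far from the shares over all tested genes (18.8% higher and 21.8% lower). Of 27 tested, 7 were higher and 5 lower, with a median of 0.03. Besides Ckb and Acot2, described above, Odc1, the first enzyme of polyamine synthesis, had 311 and 281 CPM in 2xSCS2F10 and 150.5 and 144 in 2xSCS70 (−1.01 ± 0.12 SE, adjusted p = 0.00430). Aldh6a1, an enzyme of valine breakdown, had 37.2 and 52.3 CPM against 13.2 and 16.7 (−1.58 ± 0.23 SE, adjusted p = 0.00710). Dlst, a subunit of the 2-oxoglutarate dehydrogenase, went the other way, with 100.1 and 91.0 CPM against 150.5 and 150.7 (0.66 ± 0.12 SE, adjusted p = 0.0119). Without either 2xSCS70 library the list held 0 higher and 1 lower, and without 2xSCS2F10 replicate 2 it held 10 and 9 with a median of −0.02.

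Of 17 matrix and secreted factors 6 were higher and 5 lower, with a median of −0.10. Fbln5, which joins elastin to cells, had 531 and 569 CPM in 2xSCS2F10 and 47.0 and 42.9 in 2xSCS70 (−3.61 ± 0.14 SE, adjusted p = 0.000399). Lamb1, a laminin chain of basement membranes, had 417 and 576 CPM against 256 and 218 (−1.07 ± 0.20 SE, adjusted p = 0.0145). Tgfb3, a transforming growth factor, had 118 and 142 CPM against 64.8 and 66.7 (−0.99 ± 0.14 SE, adjusted p = 0.00659). With Ltbp2, these matrix genes were lower with no overlap. Pxdn, a peroxidase that cross-links collagen IV, was higher, with 226 and 317 CPM against 977 and 876 (1.77 ± 0.21 SE, adjusted p = 0.00414). The median was −0.32 without 2xSCS2F10 replicate 1 and 0.19 without replicate 2, so its sign rested on 1 library. In tests without 2xSCS70 replicate 1 or 2 the list held 1 higher and 1 lower each, with Fbln5 called in both (adjusted p = 0.0250 and 0.0247) and Pxdn in neither (0.0695 and 0.0608).

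Cytoskeletal and traffic genes mostly stayed short of the threshold. Of 24 tested cytoskeletal genes 3 were higher and 2 lower (median 0.12), the lower genes being Crip1 and Crip2. Evl, an actin polymerase of the Ena/VASP family, had 19.4 and 17.4 CPM in 2xSCS2F10 and 48.6 and 40.6 in 2xSCS70 (1.28 ± 0.16 SE, adjusted p = 0.00445). Of 21 traffic genes 3 were higher and 2 lower (median 0.11). Pacs2, a sorting protein of endosomes and of contacts between mitochondria and the endoplasmic reticulum, had 63.3 and 71.1 CPM against 131 and 118 (0.89 ± 0.13 SE, adjusted p = 0.00740). Laptm4a, a lysosomal membrane protein, had 430.1 and 654 CPM against 266 and 282 (−0.98 ± 0.23 SE, adjusted p = 0.0245). The cytoskeletal list held 0 either way without either 2xSCS70 library, and 7 higher and 7 lower and 8 and 4 without 2xSCS2F10 replicate 1 and 2. For the traffic list these counts were 1 and 0 without either 2xSCS70 library, then 5 and 7, and 7 and 3.

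Kinases, phosphatases and receptors also went in both directions, with 6 of 26 higher and 9 lower and a median of 0.32. Besides Map3k9 and Prkd1, described above, Jag2, a Notch ligand, had 1.34 and 1.36 CPM in 2xSCS2F10 and 18.2 and 14.9 in 2xSCS70 (3.61 ± 0.22 SE, adjusted p = 0.000862). Nfkbia, the inhibitor of NF-kappaB, had 20.7 and 32.1 CPM against 59.4 and 52.5 (1.08 ± 0.24 SE, adjusted p = 0.0222). Akt1, the kinase of insulin and growth factor signalling, had 218 and 189 CPM against 282 and 231 (0.33 ± 0.15 SE, adjusted p = 0.143), close to the common shift. With either 2xSCS70 library left out the list held 1 higher and 2 lower, and with either 2xSCS2F10 library left out it held 13 higher and 9 lower, so the balance of directions depended on the libraries used.

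**Figure D5:**
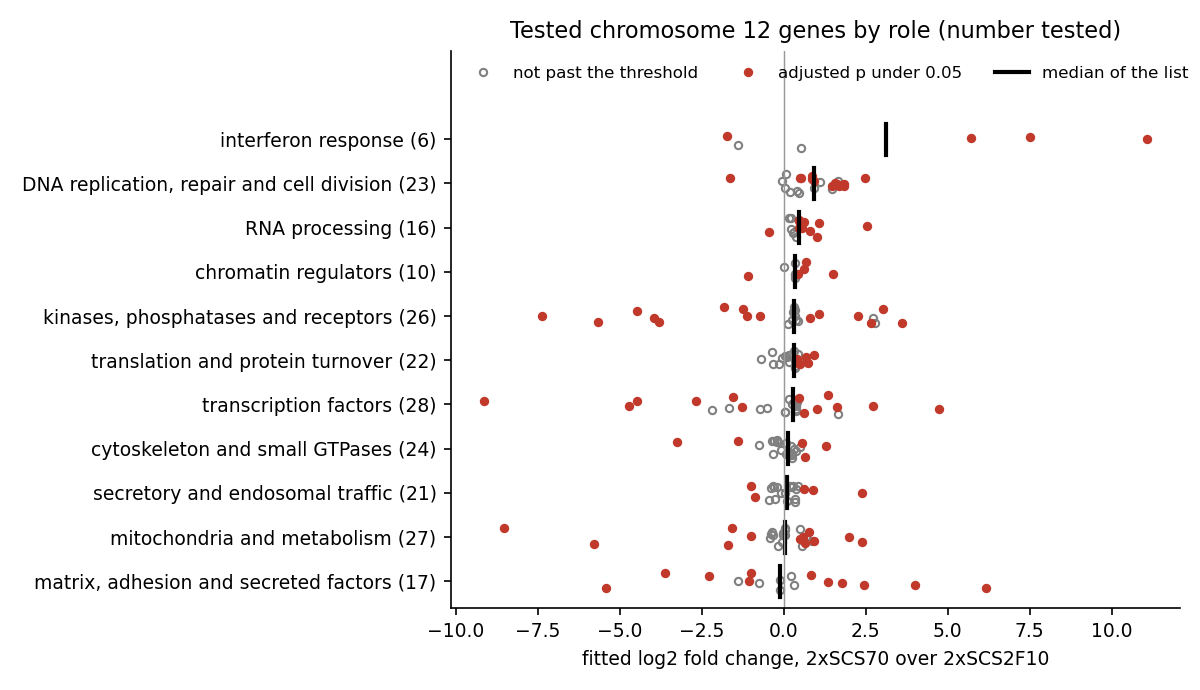
Fitted log2 fold change, 2xSCS70 over 2xSCS2F10 (horizontal axis), of the tested chromosome 12 genes in each of 11 lists by role (vertical axis, with the number tested); filled points have an adjusted p under 0.05, open points do not, and a black bar is the median of the list. Medians run from −0.10 for matrix genes to 0.92 for replication and division genes, with 3.12 for the 6 interferon genes.

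Colec11, a collagen-like lectin of innate immunity, was the other longer gene at 0 in a line with a mean of at least 1 CPM in the other. It had 0.360 and 1.78 CPM in 2xSCS2F10 and 0 counts in both 2xSCS70 libraries, at least 9.24-fold lower against a floor of 3 fragments per library (adjusted p = 0.0285; 0.128 and 0.124 without 2xSCS70 replicate 1 and 2). The 2xSCS2F10 libraries were far apart. Colec11 passed the filter on low counts only through 2xSCS2F10, so the direction of its call was set by the filter. Over all members, 21 rows were at 0 in both 2xSCS70 libraries, 17 of them the short rows, and 8 were at 0 in both 2xSCS2F10 libraries. The shares of such rows over all genes are not given here, so no excess is read from these counts. At the other end of the range, the member with the fewest counts, Gm17746, had 1 fragment in 2xSCS2F10 and 9 in 2xSCS70, and was not tested.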

How the data were processed

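Poly(A)-selected RNA of 4 libraries was sequenced (Qiagen miRNeasy, Illumina TruSeq mRNA kit v2, per the labels' protocols). Reads were processed with TopHat2 2.0.6, Bowtie and HTSeq on mm10 (GRCm38), per the submitters' processing notes; the counting annotation and any use of strand are not given in the sources used here, so reads of overlapping genes may not be separated. The authors deposited raw counts per gene and RPKM (scaled to coding length and library size), per the file headers. All counts were even, so 1 fragment was taken as 2 counts. Names that had turned into dates (25) were restored.

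Lines were compared on counts with edgeR 4.0.16 in R 4.3.3 (TMM, filterByExpr, quasi-likelihood test, Benjamini-Hochberg adjustment at 0.05). CPM were scaled by TMM; the SE is the absolute log2 fold change over the root of the F statistic. A second fit had each chromosome's median as an offset. The common biological coefficient of variation was 20.4%. The script was checked on simulated counts. Intervals and floors (3 fragments, 0.109 to 0.157 CPM) cover counting error only; the depth, 20159986 to 24485632 fragments, limits rows of few counts. Alternatives were a replicate block, RLE, upper quartile and off-chromosome TMM scaling, other filters, DESeq2 1.42.0, limma-voom and limma 3.58.1 on log2(RPKM + 1) and log2(RPKM + 0.1), other runs and members, and each library left out.

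The members, the 11 role lists (251 entries, 245 rows) and the tests were chosen with earlier results of these data known. Named by rule were the 8 called genes with at least 10 CPM farthest from the chromosome median each way, 6 rows of highest RPKM, 2 called genes per list by adjusted p, 10 genes of interest (Etv1, Hif1a, Twist1, Id2, Fos, Akt1, Hsp90aa1, Dnmt3a, Dicer1, Yy1), the first and last rows, the lowest and highest sums, and rows at 0 in 1 line with at least 1 CPM in the other. All other genes named were chosen after their values were seen. Of 534 members, 471 matched a RefSeq symbol directly, 54 an older symbol, and 9 none; 14 of 14 microRNA members matched a RefSeq entry. Names, sequences and promoters come from RefSeq GRCm38.p6, strand and transcript GC from GENCODE on GRCm38. Tables and figures were made in Python 3.11.15 with pandas 2.3.3, numpy 2.4.6, matplotlib 3.10.9 and scipy 1.17.1.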

Additional observations from a re-analysis of the deposited data

How the results depend on the processing

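Chromosome 12 had the highest autosomal median, and was above the other autosomes, in each of the 15 settings that refit or rescale the data. Its median of 0.37 was 0.35 with RLE scaling, 0.46 with upper quartile scaling (which moved the median of all genes to 0.11), 0.38 with TMM factors from genes off the chromosome, 0.36 with no filter, 0.39 at a mean of at least 5 CPM, 0.35 with DESeq2, 0.38 with limma-voom, 0.41 on log2(RPKM + 1), 0.58 on log2(RPKM + 0.1), 0.38 without rows under 150 bases (chosen after seeing the data) and 0.34 to 0.37 with each library left out. The medians of all genes were 0.15 and 0.25 on the RPKM scales. The difference of 0.38 from the other autosomes was 0.35 with no filter, 0.41 at 5 CPM, 0.28 and 0.36 on the RPKM scales and 0.36 to 0.38 with each library left out; the cause of these moves was not tested. Members called lower (74) were 39 at a mean of at least 5 CPM, where 350 members were tested, and with each library left out the calls were 15 to 249 higher, 15 to 115 lower, 24 to 317 after centring, and 685 to 8927 on the other autosomes (5349 with all libraries); the lone library was then taken to vary like the other line. Of called members 68.4% were higher, and 76.2% on log2(RPKM + 1); of called genes on the other autosomes 43.6% were higher, and 61.8% and 61.2% on the RPKM scales. The span of run medians was 7.98 with runs of 20, 0.40 with runs of 80, 0.29 at 5 CPM and 0.50 without short rows.

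Signs changed for 3 named genes: with 2xSCS2F10 replicate 1 or 2 left out, the log2 fold change was 0.186 and −0.0230 for Rps29, −0.0274 and 0.951 for Hif1a, and 2.58 and −0.47 for Id2. Of 51 named genes called, 31 and 32 lost the call without 2xSCS70 replicate 1 and 2, and 0 lost it without a 2xSCS2F10 replicate. Without either 2xSCS2F10 replicate, however, the called row AF357355 no longer passed the filter on low counts and was not tested. The same held for AF357426 and Colec11 without 2xSCS2F10 replicate 2. No pairing of the libraries by replicate number was seen (r = 0.05 between deviations over all tested genes and −0.09 over members). Whether replicate numbers mark a shared batch is not in the labels. This correlation cannot decide it, with only 1 replicate difference per line. With the replicate number as a block, 138 members were higher and 69 lower, and the chromosome 12 median was 0.38. Depth limits the short rows, of which 16 of 17 had at most 31 fragments.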

Other observations

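A group of 3 rows of an oocyte gene family (Oog1, Gm8300 and Gm2022), whose members are near copies of each other, lay together at chr12:87514316-87896722 and were each called higher in 2xSCS70. Gm2022 had 0.103 and 0 CPM in 2xSCS2F10 against 2.07 and 2.22 in 2xSCS70 (log2 fold change 5.30 ± 0.81 SE, edgeR adjusted p = 0.00826). Gm8300 had 0 counts in 2xSCS2F10 and 0.399 and 0.329 CPM in 2xSCS70, and Oog1 had 0 counts and 0.435 and 0.205 CPM. These rows passed the filter on low counts only through 2xSCS70, so the direction of their calls was set by the filter. Since the copies could share reads, the split between them is uncertain.

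Other longer rows that were far higher in 2xSCS70 had levels that were low or near the floor. Serpina3g, a serine protease inhibitor of activated lymphocytes and macrophages, had 0 and 0.0525 CPM in 2xSCS2F10 against 1.96 and 2.14 in 2xSCS70 (6.16 ± 0.74 SE, edgeR adjusted p = 0.00442), and belongs to a family of near copies. It passed the filter on low counts only through 2xSCS70, so the direction of its call was set by the filter. F730043M19Rik, a transcript with no coding name, had 0.462 and 0.892 CPM against 18.4 and 16.2 CPM (4.67 ± 0.36 SE, edgeR adjusted p = 0.00142), and lies beside Atxn7l1, which was also higher. Acot4, a member of the thioesterase group near Acot1 and Acot2, was not tested, with 0.205 and 0.525 CPM in 2xSCS2F10 and 0 counts in both 2xSCS70 libraries.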
